A study of Phalaenopsis equestris with 4 samples.

Results

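Root and flower of the butterfly orchid Phalaenopsis equestris were compared over the contigs that reached FPKM 1 in at least one of them, which were 129732 of the 221878 contigs in the deposited table. FPKM usually means a fragment number divided by the length of the transcript and by the size of the library. A contig is a sequence assembled from the reads of this study itself, so fragments of 1 gene can stand as several contigs. Plants were 3 years old, and RNA from their roots, stems, leaves and flowers gave 1 library for each organ. No genotype, treatment or organ stage is named in the labels, nor how many plants gave RNA. With 1 library each, no difference between root and flower has a replicate check, no p-value is given, and whether a library stands for its tissue was not tested. Because whole organs were sampled, fewer cells of a type and less RNA per cell cannot be told apart.

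Differences are flower minus root on the log2(FPKM + 1) scale, which understates the change of contigs at low level. A difference was called at 4-fold, 2 units on this scale. Such a call needs a higher value of at least 3 FPKM, and 70268 of the compared contigs, 54.2%, lay below that. The summed FPKM was 895717 in root and 695751 in flower. Low values of contigs that are the only one of their Trinity gene (the assembler's group of presumed isoforms) were taken to stand in ratios of small whole numbers of reads. On that assumption a contig at equal FPKM had about 1.73 times as many reads in flower as in root, if FPKM was scaled in the same way in both. With values up to FPKM 2 the estimate was 3.48. If either holds, a value of 0 carries less weight in root than in flower. Only the tables of heat shock proteins and of R genes pair contigs with gene models, so markers of root or floral tissue could not be checked.

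Heat shock proteins are chaperones. Small heat shock proteins of the HSP20 family bind unfolding proteins without using ATP and hold them in a state from which others can refold them. HSP70 chaperones bind and release clients in cycles of ATP hydrolysis, and HSP90 chaperones bring late-folding clients such as kinases and immune receptors to maturity. In plants many HSP20 genes are known to be induced by heat, and some to be expressed in reproductive organs. R genes encode disease resistance proteins, many of them intracellular immune receptors with a nucleotide-binding domain and leucine-rich repeats.

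Most compared contigs were higher in root, and by a wide margin in number. Of the 129732 contigs, 103346 were higher in root, 26384 in flower and 2 equal. At least 4-fold differences numbered 29077 higher in root, 22.4% of the contigs compared, and 5098 higher in flower, 3.93%. The median difference was -1.30, the middle 50% of contigs lay between -1.91 and -0.47, and percentiles 5 and 95 were -3.13 and 1.77. Among contigs at 3 FPKM or more in one of the tissues, where the call was possible, 48.9% were called higher in root and 8.57% higher in flower.

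Contigs below FPKM 1 in one of the tissues entered only through the other, so their direction is fixed by the rule of the comparison and is given as a count. Below FPKM 1 in flower were 88964 contigs, 68.6% of those compared, and they held 27214 of the 29077 calls in root. Contigs below FPKM 1 in root numbered 12705, or 9.79%, and held 3355 of the 5098 calls in flower. The remaining 28063 contigs, 21.6%, reached FPKM 1 in both tissues. Their median difference was -0.03, 51.2% were higher in root, and 1863 were called higher in root against 1743 in flower. Pearson's r between root and flower log2(FPKM + 1) was 0.37 across all compared contigs and 0.62 across those reaching FPKM 1 in both, with Spearman's rho of 0.09 and 0.56. These describe contigs of a single pair of libraries, and contigs are not independent replicates.

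**Figure D1:**
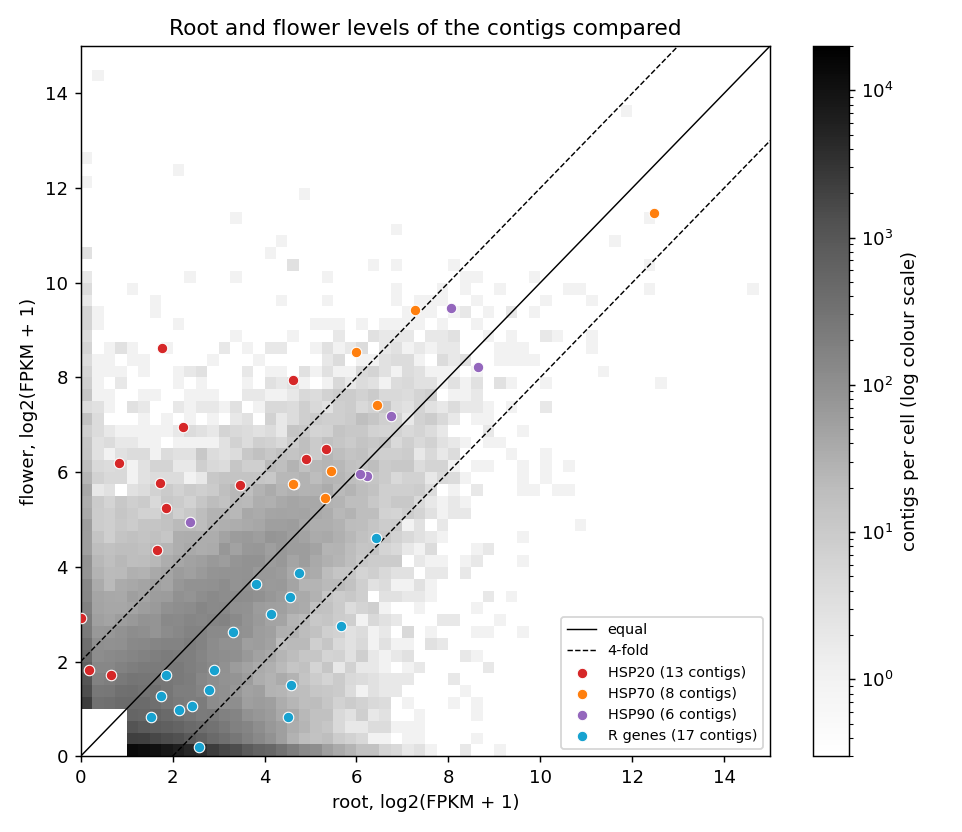
Root level (x axis) against flower level (y axis), both as log2(FPKM + 1), for 129732 contigs counted in cells of 0.25 units, with grey on a log scale; coloured points are the heat shock and R gene contigs, the solid line marks equal values and the dashed lines a 4-fold difference. The darkest cells lie along the root axis at flower values near 0, all 13 HSP20 contigs lie above the line of equality and all 17 R gene contigs lie below it as deposited, 15 with sums set equal.

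The share of contigs higher in each tissue changed with expression level. Contigs were grouped by the higher of their root and flower values. From 1 to under 2 FPKM 84.1% of 46023 contigs were higher in root, and from 2 to under 5 FPKM 85.0% of 46837. The share higher in root was 77.5% of 18114 contigs from 5 to under 10 FPKM and 65.0% of 9525 from 10 to under 20 FPKM. From 20 to under 50 FPKM it was 52.8% of 5912 contigs, close to even. Above that level flower was the more frequent higher tissue. Flower was higher in 54.1% of 1912 contigs from 50 to under 100 FPKM, in 58.7% of 1269 from 100 to under 500 FPKM, and in 60.0% of the 140 contigs at 500 FPKM or more.

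The median difference first widened toward root with level and then turned toward flower. It was -1.10 from 1 to under 2 FPKM, where no call was possible. From 2 to under 5 FPKM it was -1.71, and 25.8% of contigs were called in root. The median difference was -2.41 from 5 to under 10 FPKM, -1.30 from 10 to under 20, -0.17 from 20 to under 50, 0.29 from 50 to under 100, 0.72 from 100 to under 500 and 1.61 at 500 or more. Calls higher in root made up 58.3% of contigs from 5 to under 10 FPKM and 17.7% from 100 to under 500 FPKM. Calls higher in flower made up 6.48% and 29.2% of the same classes and made up 46.4% at 500 FPKM or more. In all, 77.9% of the contigs called in root had their higher value below 10 FPKM, against 42.2% of those called in flower. Of all 129732 compared contigs, 110974 had their higher value below 10 FPKM, among them all contigs too low for a call. A higher value below 10 FPKM was therefore not particular to the contigs called in root. Over the 3321 contigs reaching 50 FPKM in one of the tissues, 856 were called higher in flower and 624 in root.

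The level at which the direction turned moved with scaling. With the sums of both libraries set equal, which raises flower by 0.36 log2 units against root, flower was already higher in 56.4% of contigs from 20 to under 50 FPKM and in 71.7% at 500 FPKM or more. With median-of-ratios factors, which shift the 2 libraries by only 0.04 log2 units, these shares were 48.6% and 61.7%. Below 10 FPKM root was higher in at least 72.9% of contigs in each class under all 3 scalings. Grouped by the mean of both values instead, flower was higher in 53.2% of contigs from 20 to under 50 FPKM and in 59.8% from 100 to under 500 FPKM, but the directions were even among the 68 contigs with a mean of 500 FPKM or more.

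**Figure D2:**
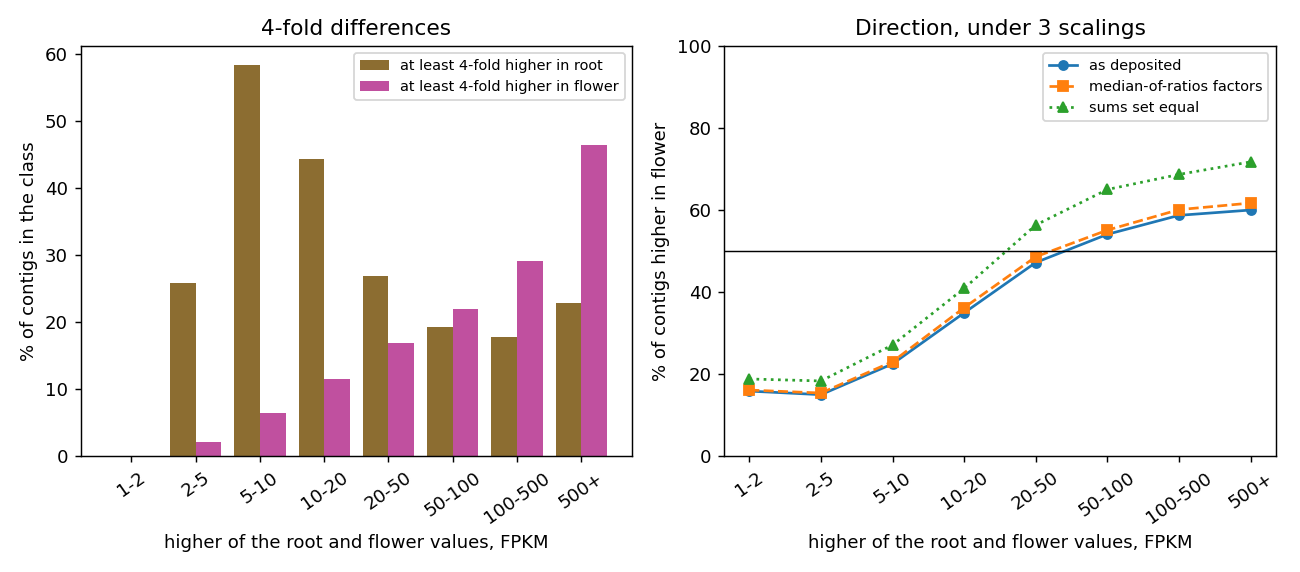
Left, the percentage of contigs called at least 4-fold higher in root or in flower, and right, the percentage higher in flower by any amount under 3 scalings, both by class of the higher of the root and flower values in FPKM. The calls in root peak at 58.3% from 5 to under 10 FPKM, but no call is possible where the higher value is below 3 FPKM. The share higher in flower as deposited passes 50% between the class from 20 to under 50 FPKM and the next.

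In the classes from 5 to under 50 FPKM the differences did not form a single spread. From 5 to under 10 FPKM the fullest step of 0.5 units, from -3.0 to -2.5, held 5816 contigs, while the step from -1.5 to -1.0 held 762 and the step from 0.0 to 0.5 held 958. From 10 to under 20 FPKM the steps from -4.0 to -3.5, -2.5 to -2.0 and 0.0 to 0.5 held 1701, 317 and 663 contigs. From 20 to under 50 FPKM, 370 contigs lay between -5.0 and -4.5, 139 between -3.5 and -3.0, and 517 between 0.5 and 1.0. The lower group is made of contigs that are at or near 0 in flower, so its place is set by the root level itself, and the group near 0 is made of contigs of like level in both tissues. A smaller rise in number lay on the flower side of the same classes. From 10 to under 20 FPKM the steps of 0.25 units from 2.75 and from 3.5 held 94 and 160 contigs, and from 20 to under 50 FPKM the steps from 3.75 and from 4.5 held 43 and 75. From 50 to under 100 FPKM the steps from 4.75 and from 5.75 held 8 and 31. On the root side of that class the steps from -4.5 and from -6.0 held 7 and 32. From 100 to under 500 FPKM the steps from 4.75 and from 6.75 held 4 and 18. Below 5 FPKM the lower group passed into values near 0 without such a gap, but the flower side again had a rise. From 1 to under 2 FPKM the steps of 0.25 units from 0.75 and from 1.0 held 611 and 2515 contigs. From 2 to under 5 FPKM those from 1.25 and from 1.5 held 544 and 993. Contigs below FPKM 1 in flower were 59.3% of the class from 5 to under 10 FPKM, 38.1% from 10 to under 20, 16.3% from 20 to under 50 and 1.73% from 100 to under 500. Contigs below FPKM 1 in root were a steadier share, from 6.28% to 8.04% in the classes from 5 to under 500 FPKM, and 20.7% at 500 FPKM or more. In that last class 27 of the 140 contigs had a difference of 9 or more toward flower, and 25 contigs were listed at 0 in root. The 140 contigs came from 116 assembly components, and the component with most of them, c157498, held 6 of the 25. Without it, 58.2% of the remaining 134 contigs were higher in flower and the median difference was 1.41.

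**Figure D3:**
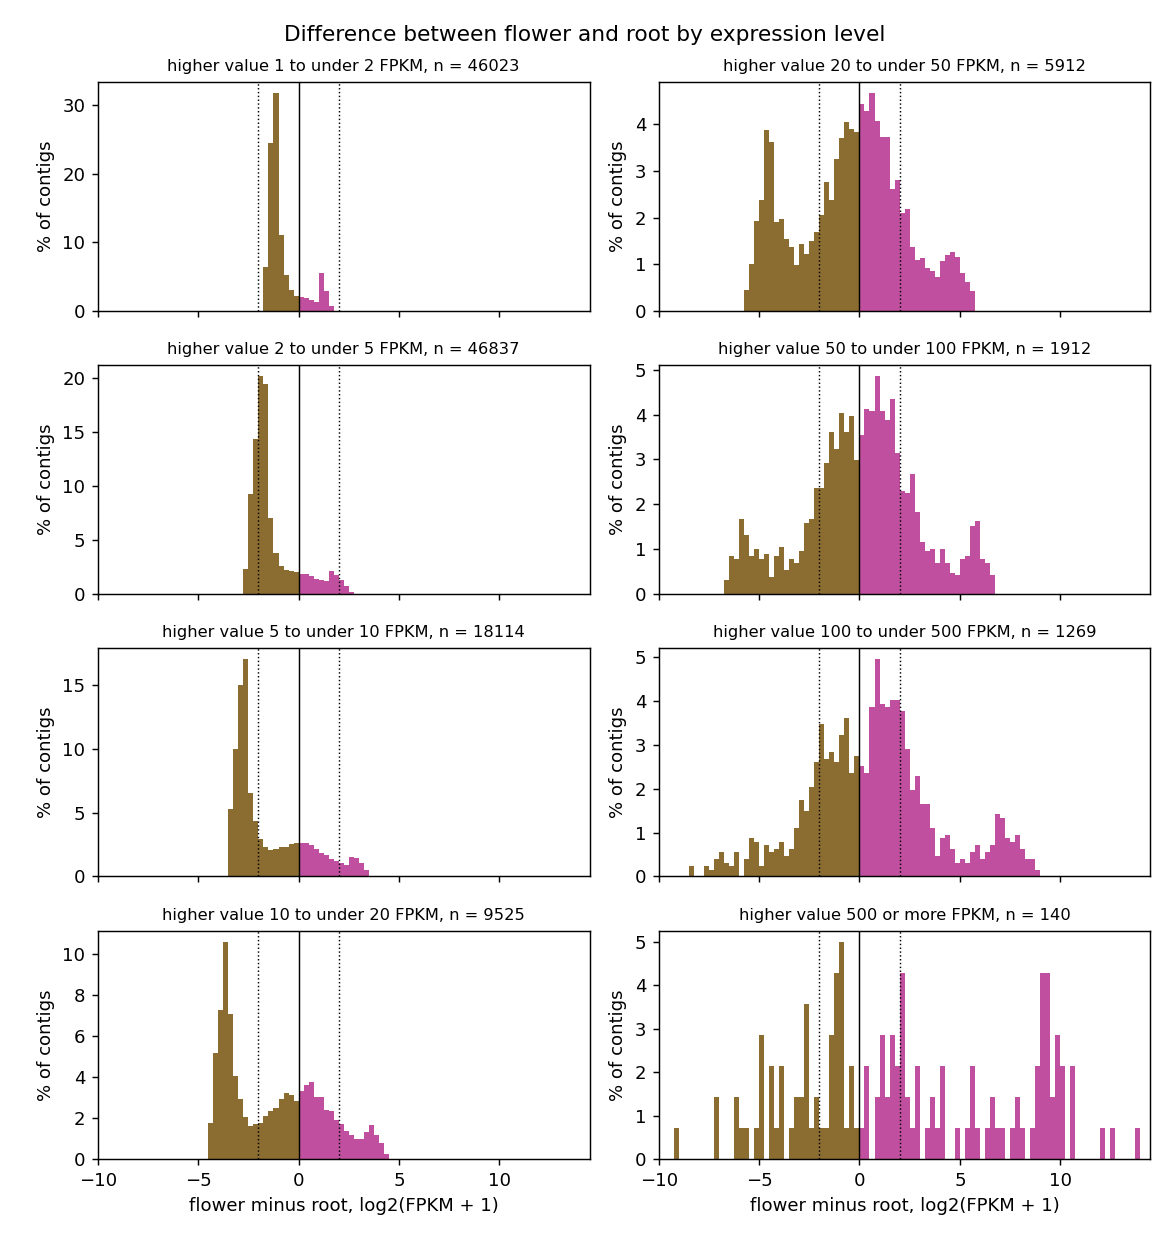
Histograms of flower minus root on the log2(FPKM + 1) scale in steps of 0.25 units, as a percentage of the contigs in each of 8 classes of the higher value; brown is higher in root, pink higher in flower, and dotted lines mark 4-fold. From 5 to under 50 FPKM a group at the far left stands apart from the group around 0, a smaller one lies at the far right, and at 500 FPKM or more a further group lies at differences of 9 or more. A rise at the far right is also present below 5 FPKM and from 50 to under 500 FPKM.

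Contigs listed at 0 in one tissue were more numerous on the flower side. Of the compared contigs 50631, 39.0%, were listed at 0 in flower, and 6457, 4.98%, were listed at 0 in root. The contigs at 0 in flower had a median of 2.30 FPKM in root, with percentiles 10 and 90 of 1.19 and 7.04 FPKM. This was near the root median of 2.36 FPKM over all compared contigs. Contigs of FPKM 1 or more in root that were above 0 in flower had a root median of 3.03 FPKM. The contigs at 0 in root had a median of 1.80 FPKM in flower, with percentiles 10 and 90 of 1.09 and 8.04 FPKM. Contigs of FPKM 1 or more in flower that were above 0 in root had a flower median of 4.46 FPKM. At high level the order was the other way round: 12 contigs at 100 FPKM or more in root were listed at 0 in flower, while 73 at 100 FPKM or more in flower were listed at 0 in root.

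The stem library was not used in the comparison. The 29077 contigs called in root had medians of 5.61 FPKM in root, 1.25 in stem and 0 in flower. Stem was listed at 0 in 24.5% of them. Flower was listed at 0 in 63.4%, which follows in part from choosing contigs low in flower. Stem lay nearer to flower than to root in 62.4%. The 5098 contigs called in flower had medians of 12.4 FPKM in flower, 3.46 in stem and 0.286 in root, and stem lay nearer to root in 57.7% of them. Stem lay outside the range of the other two in 1051 and 480 of the contigs called in root, above and below it, and in 364 and 219 of those called in flower. These contigs were chosen for a wide gap between root and flower, which leaves a wide range for a value between them. Of the 95557 contigs under 4-fold, stem lay above both in 16.3% and below both in 10.8%.

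Contigs listed at 0 in flower were also lower in stem than contigs of the same root level found in flower. From 5 to under 10 FPKM in root, the 6177 contigs listed at 0 in flower had a median of 0.813 FPKM in stem and 37.2% were listed at 0 there, whereas the 10335 contigs above 0 in flower had a median of 4.26 FPKM and 2.75% at 0. From 20 to under 50 FPKM in root, the medians in stem were 2.64 FPKM for the 563 contigs listed at 0 in flower and 19.998 FPKM for the 3749 above 0. In leaf, 92.5% of the first set and 29.3% of the second were listed at 0 in the class from 5 to under 10 FPKM. The summed FPKM of leaf, 7179834, is far above that of root and flower, and leaf levels are not compared here.

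**Figure D4:**
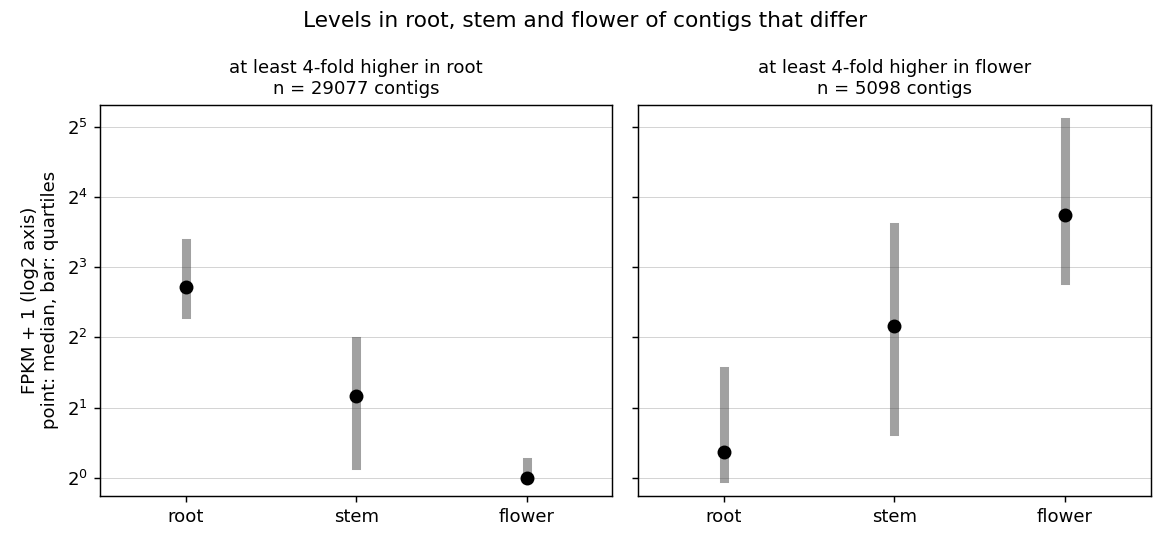
Median (point) and quartiles (bar) of FPKM + 1 on a log2 axis in root, stem and flower for contigs called at least 4-fold higher in root (left) or in flower (right). Root and flower values chose these contigs, so the gap between them is given by the choice; the stem medians were 1.25 and 3.46 FPKM.

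Flower expression was more concentrated in few contigs. The 1000 highest contigs held 43.5% of the summed FPKM in flower and 28.4% in root, and the 100 highest held 19.4% and 14.2%. The lists of the 100 highest contigs had 21 contigs in common. The root list had a median of 588 FPKM in root and 170 in flower, and 3 of its contigs were below FPKM 1 in flower. The flower list had a median of 771 FPKM in flower and 59.7 in root, and 29 of its contigs were below FPKM 1 in root. The contigs called in root held 40.9% of the root sum and 2.62% of the flower sum, while those called in flower held 36.9% of the flower sum and 1.71% of the root sum. Root and flower values chose these sets and both lists, so lower values in the other tissue follow in part from the choice. The files do not pair these contigs with gene names. The widest differences belonged to c118652_g1_i1, at 20372 FPKM in flower and 0.261 in root, and to c194731_g1_i1, at 5815 FPKM in flower and listed at 0 in root. In the other direction they belonged to c177502_g1_i1, at 593 FPKM in root and listed at 0 in flower, and to c116575_g1_i2, at 409 FPKM in root and 0.226 in flower. In stem, c177502_g1_i1 stood at 97.3 FPKM and c116575_g1_i2 at 6.96, while c118652_g1_i1 was listed at 0 and c194731_g1_i1 stood at 0.073.

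The heat shock table held 29 gene models. Of these 28 lay on 27 contigs, all of which reached FPKM 1 in root or flower, and 1 model, HSP20_PEQU_02461, had no contig. HSP20 lay at the flower end of the distribution. All 13 contigs were higher in flower, as were 20.3% of all compared contigs, and 9 of 13 were called at least 4-fold higher there, against 3.93% of all. Their median difference was 2.93 beside -1.30 over all contigs, and their median FPKM was 53.9 in flower and 2.40 in root. Their percentiles in the whole distribution, counted from the root end, ran from 88.8 to 99.9. Within their own level classes, where flower was more often the higher tissue at high level, the percentiles ran from 65.1 to 98.1 with a median of 91.6. HSP20 contigs below FPKM 1 in root entered only through flower, so their direction was fixed by the filter. All 9 HSP20 contigs at FPKM 1 or more in both tissues were higher in flower, and 7 were called. Over all contigs at that level 51.2% were higher in root, and 1743 of 28063 were called in flower.

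The highest placed HSP20 contig was that of HSP20_PEQU_14369, at 2.40 FPKM in root and 391 in flower. The ratio of these FPKM values was 163, and the difference of 6.85 lay at percentile 99.9 of all contigs. It lay at percentile 93.5 of contigs from 100 to under 500 FPKM, a class in which 29.2% were called in flower. HSP20_PEQU_14367 stood at 0.782 FPKM in root and 72.6 in flower, percentile 94.5 of its class. HSP20_PEQU_23676 stood at 3.65 FPKM in root and 122 in flower, percentile 89.1 of its class. These 3 and 6 other HSP20 contigs were all below 4 FPKM in root.

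The remaining HSP20 contigs showed the same direction at other levels. HSP20_PEQU_14371 stood at 2.29 FPKM in root and 53.9 in flower, HSP20_PEQU_09328 at 2.60 and 36.9, and HSP20_PEQU_08607 at 2.17 and 19.6. HSP20_PEQU_09331 was at 23.5 FPKM in root and 246 in flower, and HSP20_PEQU_07221 at 10.1 and 52.1 FPKM. The smallest ratios were those of HSP20_PEQU_14374, at 39.6 and 89.1 FPKM, and HSP20_PEQU_10259, at 28.9 and 76.5 FPKM, which were the 2 contigs highest in root and the lowest placed in their class, at percentiles 65.1 and 68.4. At the low end, HSP20_PEQU_17855 and HSP20_PEQU_41347 share a contig at 0.13 FPKM in root and 2.54 in flower. HSP20_PEQU_07627 stood at 0.586 FPKM in root and 2.29 in flower. Neither could reach the 4-fold call at these levels. HSP20_PEQU_23675 was listed at 0 in root and stood at 6.61 FPKM in flower, at percentile 98.1 of its class, but its bit score of 126 is the lowest of the table and its identity is uncertain.

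HSP70 lay closer to the middle of contigs of like level. Of its 8 contigs 7 were higher in flower, 2 were called there and none in root, with a median difference of 1.04. The median FPKM was 52.9 in root and 117 in flower. Percentiles in the whole distribution ran from 65.7 to 97.7, but within level classes they ran from 32.1 to 77.9 with a median of 55.7. HSP70_PEQU_02517, at 62.9 FPKM in root and 372 in flower, was the highest placed in its class. HSP70_PEQU_21700, at 154 and 682 FPKM, was the other one called, yet lay at percentile 56.4 of the 140 contigs at 500 FPKM or more.

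The other HSP70 contigs differed by 2.23-fold or less on the FPKM scale. HSP70_PEQU_15134 and HSP70_PEQU_17275 had nearly the same pair of values, 23.7 and 52.8 FPKM for the first and 23.8 and 53.0 for the second. HSP70_PEQU_03033 stood at 86.8 FPKM in root and 169 in flower, HSP70_PEQU_38972 at 42.8 and 64.3, and HSP70_PEQU_36873 at 38.6 and 42.7. HSP70_PEQU_18080 was the exception in direction, at 5644 FPKM in root and 2829 in flower, and lay at percentile 32.1 of its class.

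HSP90 was split in direction. Of its 6 contigs 3 were higher in flower and 3 in root as deposited, against 5 and 1 with sums set equal, with a median difference of 0.16 and median FPKM of 90.4 in root and 102 in flower. Only HSP90_PEQU_31881 was called, at 4.19 FPKM in root and 30.0 in flower, and it was the lowest of the family in both tissues. With a pseudocount of 5 this call was lost. HSP90_PEQU_19268 stood at 266 FPKM in root and 706 in flower, and HSP90_PEQU_14751 at 107 and 144. In the other direction, HSP90_PEQU_15042 stood at 401 FPKM in root and 297 in flower, HSP90_PEQU_00122 at 74.2 and 59.1, and HSP90_PEQU_19561 at 66.3 and 61.1. The last 2 were those that turned with sums set equal. Within their level classes 5 of the 6 HSP90 contigs lay below the class median, at percentiles from 37.3 to 47.9, and HSP90_PEQU_31881 lay at 87.9.

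**Figure D5:**
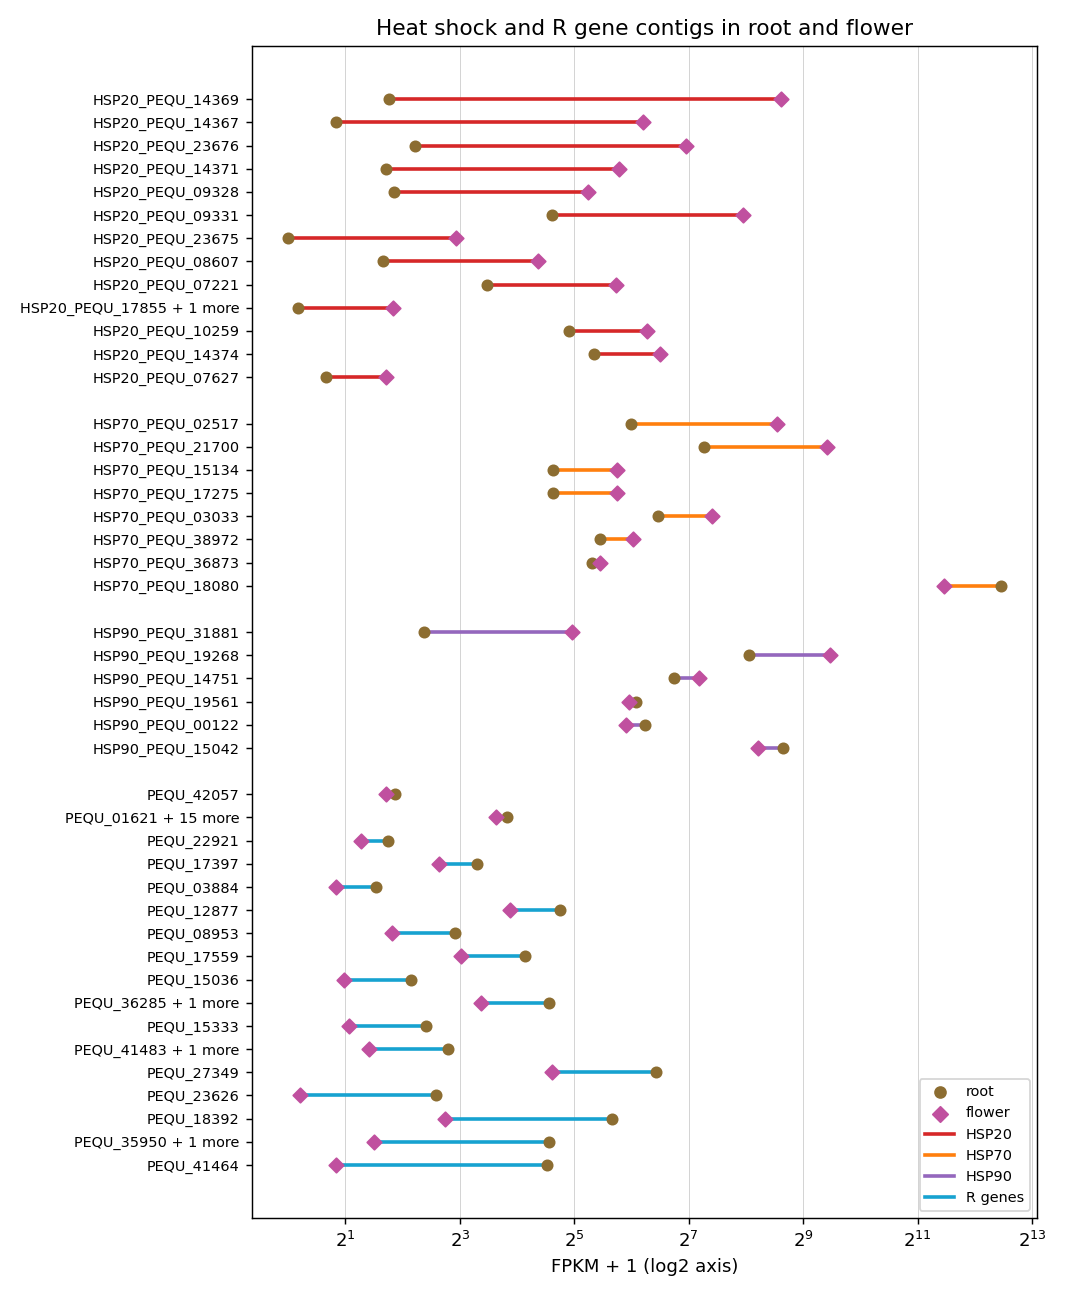
FPKM + 1 on a log2 axis in root (brown circles) and flower (pink diamonds) for each heat shock and R gene contig, labelled by its gene model and ordered by difference within each list. The lines of HSP20 run to the right from root to flower in 13 of 13 contigs, those of HSP70 in 7 of 8, those of HSP90 in 3 of 6 and those of the R genes in 0 of 17; with sums set equal the last counts were 5 and 2.

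R genes were all higher in root as deposited, 15 of 17 with sums set equal, but as a list they lay near the middle of the distribution of all compared contigs. Their 35 gene models fell on 17 contigs, each counted once, and all reached FPKM 1 in root or flower. All 17 were higher in root, as were 79.7% of all compared contigs, and 4 of 17, 23.5%, were called there, near the 22.4% of all. None was called in flower. R gene contigs below FPKM 1 in flower entered only through root, so their direction was fixed by the filter. All 13 R gene contigs at FPKM 1 or more in both tissues were higher in root as deposited, and 2 were called. Over all contigs at that level 51.2% were higher in root, and 1863 of 28063 were called there. The median difference of all 17 R gene contigs was -1.17 beside -1.30 over all compared contigs, with median FPKM of 8.89 in root and 2.29 in flower. Of the compared contigs 68.6% were below FPKM 1 in flower. At FPKM 1 or more in both tissues the median was -1.13 for R genes and -0.03 over all contigs. At least 2-fold differences in root were found in 11 of 17 contigs, 65.6% being the share over all contigs. Percentiles within level classes ran from 17.5 to 83.9, with 11 contigs above the median of their class and 6 below.

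The R gene contigs differed by level. The 6 contigs that reached 20 FPKM in root were the 6 that lay below the median of their class, which means toward the root end. Of these, PEQU_41464 had the widest difference, at 21.9 FPKM in root and 0.778 in flower, a ratio of 28.2 at percentile 17.5 of its class. PEQU_35950 and PEQU_35952 share a contig at 22.7 FPKM in root and 1.84 in flower, and PEQU_18392 stood at 49.4 and 5.72. PEQU_27349, the highest R gene contig in either tissue, stood at 84.7 FPKM in root and 23.4 in flower. The other 2 were PEQU_36285, which shares its contig with PEQU_38720, at 22.4 and 9.29 FPKM, and PEQU_12877 at 25.8 and 13.7 FPKM.

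The R gene contigs below 20 FPKM had differences smaller than the median of their class. PEQU_23626 was the one called, at 5.00 FPKM in root and 0.149 in flower, and with percentile 50.6 it lay in the middle of its class. PEQU_41483 with PEQU_03885 stood at 5.95 and 1.65 FPKM, PEQU_08953 at 6.51 and 2.52, and PEQU_17397 at 8.89 and 5.20. PEQU_17559 stood at 16.7 FPKM in root and 7.07 in flower. Below 5 FPKM, PEQU_15333 stood at 4.32 and 1.09 FPKM, PEQU_15036 at 3.40 and 0.962, PEQU_22921 at 2.35 and 1.43, and PEQU_03884 at 1.88 and 0.778. The smallest differences were those of the contig that 16 models share, PEQU_01621 among them, at 13.1 and 11.5 FPKM, and of PEQU_42057 at 2.64 and 2.29 FPKM. These 2 were the contigs that turned with sums set equal.

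Other contigs of the same Trinity genes gave the same direction. Where the Trinity gene of an R gene contig held further contigs reaching FPKM 1 in root or flower, none of these was higher in flower. Over all compared contigs 79.7% were higher in root, and differences within a Trinity gene had a median span of only 0.49 log2 units. The further contigs are therefore no independent check of direction. The Trinity gene of PEQU_35950 summed to 178 FPKM in root and 8.61 in flower over its 4 contigs, that of PEQU_08953 to 30.0 and 11.4 over 5, and that of PEQU_17397 to 40.3 and 19.5 over 5. Summing contigs by Trinity gene left all 17 R genes higher in root and 4 called, and brought HSP20 to 10 called of 13. With a pseudocount of 5 the calls were 6 of 13 for HSP20 and 3 of 17 for R genes.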

How the data were processed

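Total RNA of 4 tissues was sequenced on an Illumina instrument, with 1 library each, per the series' design text. Contigs of at least 200 nucleotides were assembled with Trinity r2013-02-25, per the series' design text. The deposited tables hold FPKM values, per the file headers and the table's name. The heat shock and R gene tables also hold an alignment bit score for each match of a gene model to a contig, deposited by the authors. The mapper, the FPKM estimator with its lengths, and the program that matched the models: not given in the sources used here. Read totals are not used here. The submitters' processing notes name edgeR and DESeq without a role.

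Columns were assigned by the tissue in their header. Values of the smaller tables equalled those of the full table in each row with a contig. Contigs of FPKM 1 or more in root or flower were compared on log2(FPKM + 1) with Python 3.11.15 and pandas 2.3.3. FPKM is not a count, so no count test was run. Percentiles place a contig among all compared contigs or among those of its level class. Relative reads were taken from ratios of values below FPKM 0.5 in 5737 contigs that are alone in their Trinity gene; limits of 0.3, 0.75 and 1 gave the same 1.73 and a limit of 2 gave 3.48. Contigs under a lower limit are also under each higher one, so the equal estimates are not independent. The procedure was run on data simulated as whole reads, which builds in the assumption of whole numbers and cannot test it. All heat shock and R gene contigs are named; of other contigs, the 2 widest differences each way. None of the 64 gene models matched RefSeq assembly names, so no sequence or position is given. The members and lists were chosen with earlier results of these data known.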

Additional observations from a re-analysis of the deposited data

How the results depend on the processing

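With 1 library per tissue no replicate could be left out. No paired analysis was possible because each tissue has 1 library. The medians of the 4 lists kept their direction in all alternatives tried: 1.92 to 3.52 for HSP20, 0.97 to 1.40 for HSP70, 0.15 to 0.52 for HSP90, and -1.34 to -0.46 for R genes. The R gene value of -0.46 came from counting each gene model, since 16 models share 1 contig. With a pseudocount of 0.1 the calls were 83965 in root and 12443 in flower and the median of all contigs -3.37. With a pseudocount of 5 they were 2702, 1613 and -0.41, and root's share of the calls went from 85.1% to 62.6%. At FPKM 5 or more in root or flower, 16982 were called in root and 4122 in flower, 80.5% of them in root, and the median was -1.59. At FPKM 1 or more in both, the calls were 1863 and 1743, 51.7% of them in root, and the median was -0.032. The median was -0.65 with no filter, -1.28 with median-of-ratios factors, -1.23 with sums set equal and -1.41 with contigs summed by Trinity gene. A fold of 2 gave 85079 and 15530 calls, and a fold of 8 gave 7832 and 2013, 79.6% of them in root. In Trinity genes of a single contig, an alternative chosen after seeing the data, 2988 were called in flower and the median was -1.45. The number of reads behind a low FPKM value is not known.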

Other observations

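Contigs of the same Trinity gene mostly differed between root and flower in the same direction. Of 13039 Trinity genes with more than 1 compared contig, 2135, or 16.4%, had contigs on both sides of equality. As 79.7% of all compared contigs were higher in root, many contigs of different Trinity genes also shared a direction. A contig called at least 4-fold higher in root was found in 3009 of these genes and one called higher in flower in 1216, and 59 held contigs of both kinds. The median span of differences within a Trinity gene was 0.49 log2 units, and 10.3% of them spanned at least 2 units. Whether such contigs are isoforms of 1 gene or related genes was not tested.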
